A study of Mus musculus with 10 samples.

Results

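N6-methyladenosine (m6A) was mapped in mouse hypothalamic neural progenitor cells, and 1600 of the 21195 listed m6A peaks (7.55%) carried 2 or more Ensembl gene identifiers. They were taken from 1903 peaks with several identifiers by leaving out 251 that spanned over 10000 bases and 52 others in a gene cluster region of chromosome 18, and are called shared peaks here. The cells came from the hypothalamus of embryos at day 14.5 with a floxed Mettl14 gene, grown in 20 ng/ml of FGF2 and of EGF. Lentivirus with EGFP and Cre recombinase, which deletes the floxed sequence, gave Mettl14 knockout cells (4 m6A immunoprecipitation (IP) libraries and 1 input library), and lentivirus with EGFP alone gave control cells (4 IP libraries and 1 input library). EGFP-positive cells were sorted after 72 h, and polyadenylated RNA was cut to fragments of about 80 nucleotides before the antibody step. All cells of both groups carried the floxed allele. The table gives 1 number of IP reads and 1 number of input reads per peak, with no library or genotype named, so knockout and control were not compared and no value has a replicate error.

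The cell type was checked by which marker genes had any peak. Of 8 neural progenitor markers, 6 had one (Sox2, Nes, Pax6, Hes1, Notch1 and Sox9), while Vim and Fabp7 had none. Among 7 hypothalamic markers, 4 had a peak (Nkx2-1, Six3, Lhx2 and Tbx3), while Rax, Otp and Sim1 had none. Peaks also lay over 3 of 5 neuronal (Tubb3, Rbfox3 and Map2) and 3 of 4 oligodendrocyte lineage markers (Olig2, Pdgfra and Cspg4). They lay over 1 of 3 astrocyte (Aqp4), 1 of 4 vascular or mesenchymal (Kdr) and 0 of 5 microglia and blood markers. Input reads in these peaks were 5303 for progenitor, 32322 for hypothalamic, 35534 for neuronal and 48551 for oligodendrocyte lineage markers. Astrocyte markers had 9014 and vascular or mesenchymal markers 1751. A peak needs both RNA and its methylation, so these counts do not measure the makeup of the culture.

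Mettl14 is a subunit of the complex that writes m6A on nascent RNA, together with the catalytic subunit Mettl3. The mark lies mostly in long internal exons and around stop codons, and proteins of the YTH family bind it. A stretch of RNA can belong to several annotated genes when a small RNA gene sits inside a host gene, when a coding gene lies in an intron or exon of another, when neighbouring genes overlap at their ends, or when an annotated readthrough transcript runs over adjacent genes. Sequencing reads from such a stretch cannot be assigned to a single gene by position.

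The files pair no Ensembl identifier with a symbol. Genes are therefore named by position, as RefSeq gene spans (GRCm38.p6) that a peak overlapped by at least 1 base, and a gene named here need not be one of the peak's identifiers. Strands were known for 28096 of 49993 positioned RefSeq genes, including 79.9% of the protein-coding ones. The deposited intervals were read as GRCm38 coordinates, which the submitters' processing notes name for mouse.

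A small RNA gene inside a host gene gives 1 stretch of RNA several gene names, and 24 mature miRNAs of 19 miRNA genes lay wholly inside 19 shared peaks (1.19%) on the peak's strand, against 18 of 16733 single-identifier peaks (0.108%) within the same span and region limits. An annotated miRNA gene can itself add an identifier, so these shares are not independent of the selection by several identifiers. Placement used only the ends of each peak, whether or not the RNA reads reached the miRNA. The 24 miRNAs had 24 different seeds, the bases that pair with target RNAs. Sequences are shown, at least 1 each, for the 6 hosts of these miRNAs with the most IP reads (Ncl, Dgcr8, Chpf2, Arglu1, Prmt2 and Ddx5). They are also shown for C130071C03Rik and Sox2ot, which are non-coding, but not for the non-coding 4930470G03Rik, which holds Mir1896. The following mature sequences are from RefSeq (GRCm38.p6), 5′ to 3′ with the seed (bases 2 to 8) in capitals.
mmu-miR-3535: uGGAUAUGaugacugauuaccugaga
mmu-miR-1306-5p: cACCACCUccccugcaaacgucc
mmu-miR-1306-3p: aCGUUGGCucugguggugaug
mmu-miR-3618-5p: uGUGAUUUccaauaauugaggc
mmu-miR-671-5p: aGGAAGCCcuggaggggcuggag
mmu-miR-7654-3p: cGAGCGGGagcgcgccucgucc
mmu-miR-678: gUCUCGGUgcaaggacuggagg
mmu-miR-3064-3p: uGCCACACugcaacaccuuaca
mmu-miR-9-5p: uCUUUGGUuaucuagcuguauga
mmu-miR-9-3p: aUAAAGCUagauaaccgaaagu
mmu-miR-1897-3p: uCAACUCGuucuguccggugag

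Some shared peaks held the start of a gene, either of the only RefSeq gene under the peak or of one of several. A whole RefSeq start window, 250 bases before to 50 bases after a gene's start, lay inside 37 shared peaks (2.31%) on the peak's strand, against 160 single-identifier peaks (0.956%). A second gene that starts under a peak can add an identifier, so these shares are not independent of the selection. These 37 peaks held 42 windows of 37 genes, where a window was counted for each peak over it and each gene it belonged to. The Pabpn1 window was thus counted again for an overlapping peak, and Lrrc70 and Ipo11-lrrc70 had the same window. Some windows of Antkmt, Ifitm10 and A130010J15Rik also overlapped, so the counts over the 42 windows repeat some sequence. The peak over some windows also covered another coding gene on that strand, as for Ifitm10, Naa80 and Tomm6, whose windows are not printed. Windows of 3 such genes named below are printed from RefSeq (GRCm38.p6) as examples. They are Chml at chr1:175688304-175688603 on the minus strand, Pabpn1 at chr14:54893893-54894192 on the plus strand and Tapbp at chr17:33919228-33919527 on the plus strand, with GGAC, the core of the usual m6A motif, in capitals.
Chml: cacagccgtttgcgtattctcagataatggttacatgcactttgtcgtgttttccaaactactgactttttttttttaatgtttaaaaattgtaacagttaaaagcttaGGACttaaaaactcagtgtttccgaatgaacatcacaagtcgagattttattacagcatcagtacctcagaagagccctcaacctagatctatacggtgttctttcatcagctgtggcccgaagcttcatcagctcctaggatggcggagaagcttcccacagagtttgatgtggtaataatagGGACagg
Pabpn1: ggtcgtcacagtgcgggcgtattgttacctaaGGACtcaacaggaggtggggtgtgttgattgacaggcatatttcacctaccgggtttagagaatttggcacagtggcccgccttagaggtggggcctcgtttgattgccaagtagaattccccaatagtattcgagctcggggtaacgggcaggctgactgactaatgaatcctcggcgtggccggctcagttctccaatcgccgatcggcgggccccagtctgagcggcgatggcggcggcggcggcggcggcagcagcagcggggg
Tapbp: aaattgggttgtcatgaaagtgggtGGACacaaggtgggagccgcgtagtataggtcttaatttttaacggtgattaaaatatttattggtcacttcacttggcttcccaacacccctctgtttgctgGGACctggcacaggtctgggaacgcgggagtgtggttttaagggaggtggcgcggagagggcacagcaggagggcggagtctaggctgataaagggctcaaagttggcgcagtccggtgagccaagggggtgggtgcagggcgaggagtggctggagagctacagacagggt
Searched on both strands, GGAC occurred on the gene's strand in 30 of the 42 windows (71.4%), against 65.6% of all 32851 windows in the RefSeq table. Its reverse complement GTCC occurred in 26 of the 42 windows, against 66.1% of all windows. A match is only a run of letters, and the windows were counted whether or not the RNA reads reached them.

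Most shared peaks carried few identifiers. There were 1276 peaks with 2 identifiers (79.8%), 269 with 3, 44 with 4 and 7 with 5, and 4 peaks had 9, 9, 11 and 16. Identifiers never crossed between the kinds of row: 10300 appeared only alone and 1785 only with others, counting all 21195 peaks, and 0 appeared in both. A gene that shared an identifier field at one peak therefore shared it at every listed peak. The shared peaks held 1657 identifiers in 822 different sets, which joined into 703 loci by common identifiers. Chromosome 15 had the highest proportion of shared peaks among the nuclear chromosomes, 90 of 737 peaks (12.2%), followed by chromosome 16 (10.7%), and chromosome 3 had the lowest proportion above 0 (5.60%).

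Shared peaks had nearly the read support and the enrichment of other peaks. The median was 849.5 IP reads and 463 input reads per shared peak, against 833 IP reads and 450 input reads per single-identifier peak. Shared peaks held 8.17% of all IP reads under peaks and 8.79% of all input reads under peaks. Per the authors' deposited table, the log2 fold change between IP and input (log2FC) had a median of 2.996 in shared peaks (order-statistic 95% interval 2.93 to 3.07) and 3.003 in single-identifier peaks (2.98 to 3.03), a difference of -0.0066. From the reads alone, the median log2 ratio of IP to input with 0.5 added to each was 1.25 for shared peaks and 1.21 for single-identifier peaks. The authors' deposited table gave every shared peak a positive log2FC, from 0.49 to 6.26. The normalization behind these values is unknown, and a peak with fewer IP than input reads can have a positive log2FC. Intervals treat peaks as separate draws, which peaks of the same locus are not, so no test was made.

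**Figure D1:**
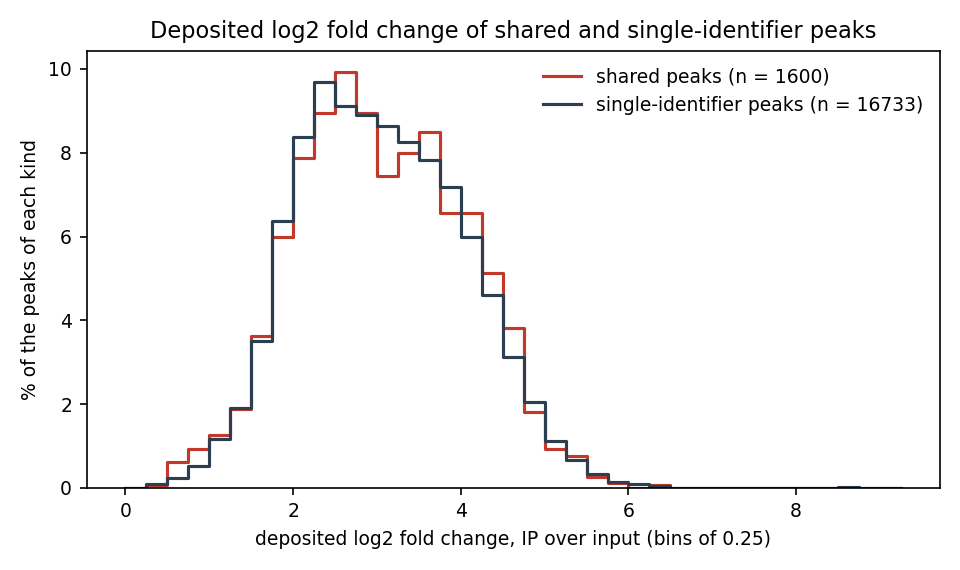
The x axis is the log2FC (IP over input) per the authors' deposited table and the y axis the percentage of peaks per bin, for 1600 shared peaks and 16733 single-identifier peaks. Both outlines lie nearly on each other, with medians of 2.996 and 3.003.

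Counts past a threshold were also near the background of the whole table. All 1600 shared peaks had an adjusted p under 0.05 per the authors' deposited table, where 21187 of 21195 peaks did (100.0% after rounding). A log2FC of 4 or more per the authors' deposited table was found in 311 shared peaks (19.4%), against 19.8% of all peaks and 18.2% of single-identifier peaks. Fewer IP than input reads were present in 172 shared peaks (10.8%), against 11.3% of all peaks and 11.7% of single-identifier peaks. By number of identifiers, the median log2FC per the authors' deposited table was 3.03 in peaks with 2, 2.92 in peaks with 3 and 2.82 in the 55 peaks with 4 or more.

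Of the 1600 shared peaks, 1244 (77.8%) overlapped 1 RefSeq gene span, 312 (19.5%, exact 95% interval 17.6 to 21.5) overlapped 2 or more, and 44 (2.75%) overlapped none. Single-identifier peaks overlapped 2 or more spans in 13.3% of cases. There were 1358 shared peaks (84.9%) with fewer RefSeq spans than identifiers. At least 2 protein-coding genes lay under 165 shared peaks (10.3%), against 6.07% of single-identifier peaks, and 59 of these 165 had one of them on the strand opposite to the peak. Since identifiers stand for annotated genes, these overlaps describe what the selection by several identifiers picked up and are not independent of it.

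A miRNA or snoRNA gene lay under 33 shared peaks (2.06%, exact 95% interval 1.42 to 2.88), 26 with a miRNA gene and 8 with a snoRNA gene, and 1 peak had both. The corresponding share of single-identifier peaks was 0.221%, and this contrast too is not independent of the selection. The peak with both covered 2251 bases of Ncl, the gene of the nucleolar protein nucleolin, with Snora75 and mmu-miR-3535, at chr1:86350094-86352344. It had 75171 IP reads and 24928 input reads, a ratio of 3.02 (exact 95% interval 2.97 to 3.06), and a log2FC of 3.83 per the authors' deposited table. A second Ncl peak over Snord82 had 7212 IP reads and 1357 input reads, and its log2FC per the authors' deposited table was 4.62. Both Ncl peaks listed 4 identifiers.

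Dgcr8 encodes the RNA-binding partner of Drosha in the complex that cuts primary miRNAs, and its own transcript holds the hairpins of miR-1306 and miR-3618. The shared peak over both, at chr16:18284024-18284696, had 14525 IP reads and 3667 input reads, a ratio of 3.96 (3.82 to 4.11), and a log2FC of 3.51 per the authors' deposited table. A wider listed peak that contained it, at chr16:18280500-18285229, was given only 3632 IP reads and 1329 input reads, with a log2FC of 3.24 per the authors' deposited table. The wider interval thus had fewer reads than the interval inside it, so these counts are not those of all reads inside each interval.

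Other coding hosts were Chpf2, a chondroitin polymerizing factor, with the miR-671 gene (10323 IP and 2738 input reads), and Prmt2, a protein arginine methyltransferase, with Mir678 (7665 IP and 2057 input reads). The 275-base peak of Ddx5, an RNA helicase, over Mir3064 had 4606 IP reads and 982 input reads, and its log2FC of 4.66 per the authors' deposited table was the highest of the 26 miRNA peaks. The lowest, 2.36 per the authors' deposited table, belonged to the Kctd12 peak with Mir5130 (9339 IP and 2726 input reads). Nrd1, a metalloendopeptidase gene, had nearly equal reads in the peak that overlapped Mir761, 425 IP and 420 input, with a ratio of 1.01 (0.882 to 1.16).

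Some hosts were non-coding. C130071C03Rik, the host RNA of the Mir9-2 gene, had 1790 IP reads and 769 input reads in the peak of 3625 bases that held both miR-9 arms, a ratio of 2.33 (2.14 to 2.54), and a log2FC of 3.74 per the authors' deposited table. miR-9 is abundant in the developing brain, where it is known to act in the step from progenitor to neuron. Sox2ot, the long RNA that overlaps the progenitor gene Sox2, had 293 IP reads and 191 input reads in the peak that overlapped Mir1897, with 5 identifiers.

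The peaks with the most identifiers lay over Rian, Taf1d and the Ugt1a genes. Rian, a maternally expressed imprinted RNA that hosts many snoRNAs, had the peak with 16 identifiers, and it had fewer IP than input reads, 269 against 340. Taf1d, which encodes a subunit of an RNA polymerase I factor and whose introns hold snoRNAs, had the peak with 11 identifiers, with 2304 IP reads and 1190 input reads and a log2FC of 3.49 per the authors' deposited table. Both peaks with 9 identifiers lay within 675 bases of each other in the Ugt1a cluster, in which glucuronosyltransferase genes have their own first exons and common last exons. One had 489 IP and 124 input reads and the other 52 IP and 27 input reads, and their log2FCs per the authors' deposited table were 4.12 and 2.43.

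**Figure D2:**
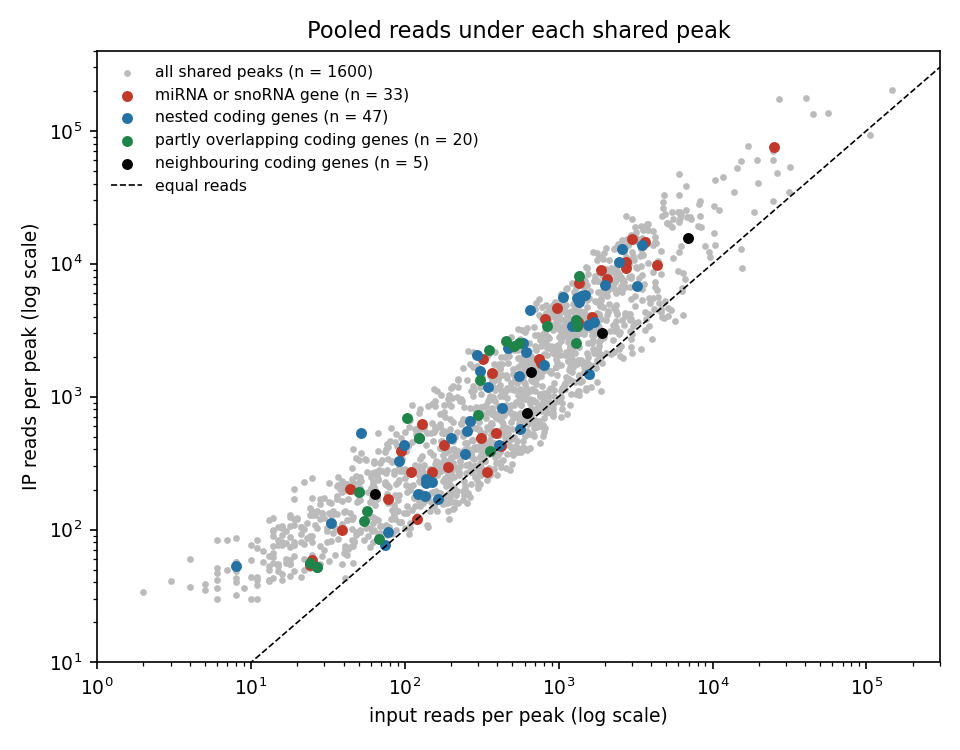
Each point is a shared peak, with its input reads on the x axis and its IP reads on the y axis, both on log scales and pooled over libraries, and the dashed line marks equal reads. Peaks over small RNA genes (n = 33) or over nested (n = 47), partly overlapping (n = 20) or neighbouring (n = 5) coding genes lie throughout the cloud, and 172 of the 1600 points lie below the line.

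Coding genes that share a strand were arranged in 3 ways under shared peaks. At least 2 coding genes known to lie on the peak's strand were present under 69 shared peaks (4.31%), against 39 single-identifier peaks (0.233%). Here also the contrast is not independent of the selection by several identifiers. A gene lay wholly inside another in 47 peaks, spans overlapped in part in 20 and spans were separate in 5, where a peak with 3 or more genes can count more than once. The median log2FC per the authors' deposited table was 3.61 over the 47 nested cases, 2.82 over the 20 partial ones and 2.34 over the 5 separate ones, beside 3.06 over all peaks. Single-identifier peaks had the reverse order, with medians of 2.66 over 24 nested cases, 2.997 over 13 partial ones and 3.66 over 2 separate ones. The arrangement thus had no steady relation to the log2FC.

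Nested pairs included genes known to sit in an intron of another. Zbed6, a regulator derived from a DNA transposon, lies within Zc3h11a, a zinc finger gene, and the 2 shared peaks there had 4463 and 6822 IP reads and 651 and 3235 input reads. Their log2FCs per the authors' deposited table were 5.02 and 3.16, the higher value at the peak with fewer reads. Of the nested pairs known to lie on the peak's strand, Ddi2 with Rsc1a1 had the most IP reads, 13871 IP and 3460 input reads. Poln, a DNA polymerase, with Haus3, an augmin subunit of the spindle, had 10283 IP and 2476 input reads over one peak and 430 IP and 99 input reads over the other. These Poln peaks had ratios of 4.15 (3.97 to 4.34) and 4.34 (3.48 to 5.46), whose intervals overlap, while the authors' deposited table gave them log2FCs of 5.01 and 2.84.

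Opn3, an opsin, with Chml, a Rab escort protein, had 529 IP and 52 input reads, a ratio of 10.2 (7.64 to 13.8), and this peak held the Chml start window printed above. Ipo11, an importin, with Lrrc70 had 2045 IP and 296 input reads over one peak and 568 IP and 562 input reads over the next, with log2FCs of 5.52 and 2.73 per the authors' deposited table. Gdf1, a growth factor of the TGF-beta family, and Cers1, a ceramide synthase, are known from a common transcript. Their shared peaks had 653 IP and 267 input reads and 112 IP and 33 input reads.

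Some single RefSeq genes spanned several others on their strand, as an annotated readthrough gene does. There were 8 protein-coding genes under shared peaks that wholly contained 2 or more separate coding genes on the same strand, and 23 shared peaks lay under them. Gm20604 contains Moap1 and Gon7, and its 3 peaks had 16697 IP reads and 3613 input reads in all, with log2FCs of 1.94 to 4.74 per the authors' deposited table. Gm21992 contains Rbm4 and Rbm14, which encode RNA-binding proteins, and its 5 peaks had 11135 IP and 3642 input reads. Most of these lay over Rbm14 in a single peak of 6921 IP and 2013 input reads. Gm20517, over Med20 and Usp49, also had 5 peaks, with 7753 IP and 2175 input reads. The others were Gm20498 (over Cox16, Synj2bp and Gm4787), Hoxa3, Tmsb15l, Eef1akmt4-ece2 (over Eef1akmt4 and Ece2) and Iqschfp (over Iqcj and Schip1), each with 2 shared peaks.

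Among genes of known strand, 5 shared peaks crossed from a coding gene into the next one with a separate span, and all 5 are named. Ctsd, the lysosomal protease cathepsin D, and Ifitm10 lay under a peak with 15576 IP and 6976 input reads, a ratio of 2.23. Bcl2l2, an inhibitor of apoptosis, and Pabpn1, the nuclear poly(A)-binding protein, lay under a peak with 3013 IP and 1909 input reads, a ratio of 1.58 (1.49 to 1.67), which held the Pabpn1 start window. Zbtb22 and Tapbp, which encodes a chaperone of antigen loading, lay under a peak with 1528 IP and 656 input reads, a ratio of 2.33 (2.12 to 2.56), which held the Tapbp window. Rbm42 with Haus5 had 756 IP and 625 input reads, and Prickle4 with Tomm6 had 184 IP and 64 input reads. The log2FCs of the 5 peaks per the authors' deposited table ran from 1.99 to 2.5, all below the median of 2.996 over shared peaks. The peaks were picked by position, not by enrichment, and 5 peaks allow no statement about such peaks in general.

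Separate coding genes on a strand were more often joined by identifiers than by a peak. In 66 of the 703 loci (9.39%), with 235 shared peaks, peaks with common identifiers lay over coding genes on the same strand with separate spans. Whether other genes lay between them was not checked, and some lay far apart, such as Fgfr2 and Ctbp2 below. An identifier that bridged others which were never listed together was found in 20 of these 66 loci. Another 399 loci (56.8%) had 1 coding gene on the strand, 19 had nested genes, 12 had partly overlapping genes, 146 involved coding genes of unlisted strand and 61 had no coding gene known on the strand.

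Peaks over both partners of such a joined pair differed in several loci. D5Ertd579e had 175776 IP and 40762 input reads in its largest peak, and Tbc1d14, a regulator of autophagy, had 1878 IP and 1339 input reads, with log2FCs of 3.98 and 2.26 per the authors' deposited table. Gemin4, a subunit of the SMN complex that assembles snRNPs, had 136831 IP and 56678 input reads in its largest peak and a log2FC of 2.84 per the authors' deposited table. The peak over Vps53, a tethering factor of endosome traffic, had 4924 IP and 1121 input reads and the higher log2FC per the authors' deposited table, 4.06. So the gene with more reads had the higher enrichment in one pair and the lower in the other.

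Ranbp1, a cofactor of the Ran GTPase, and Dgcr8 formed a locus of 9 shared peaks with 5 identifiers. The 4 Ranbp1 peaks had log2FCs of 1.62 to 2.27 per the authors' deposited table, and the 5 Dgcr8 peaks had 1.09 to 3.51. The Ranbp1 peak nearest the end of that gene had fewer IP than input reads, 2270 against 3452. Cmtr1, a cap methyltransferase, and Rnf8, a ubiquitin ligase of the DNA damage response, had 4 shared peaks each. Their log2FCs per the authors' deposited table were 1.27 to 4.13 over Cmtr1 and 2.54 to 4.31 over Rnf8, so the ranges overlapped.

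Antkmt and Metrn, the gene of the neurotrophic factor meteorin, were low together, with log2FCs of 0.92 and 0.86 per the authors' deposited table. Both had fewer IP than input reads, 3905 against 4870 over Antkmt and 166 against 238 over Metrn. Zbtb26 and Zbtb6, zinc finger genes, were high together in their larger peaks, with 3177 IP and 576 input reads over Zbtb26 and 5187 IP and 945 input reads over Zbtb6. These peaks had log2FCs of 4.93 and 4.71 per the authors' deposited table, while a smaller Zbtb26 peak had 2.42.

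A pair of 125-base peaks in the locus of Zfp866 and Zfp963 had almost the same counts. One, over Zfp866 at chr8:69763351-69763475, had 13759 IP and 2812 input reads. The other, at chr8:69778508-69778632 with no RefSeq coding gene of known strand under it, had 13790 IP and 2821 input reads. Whether the same reads were counted at both places was not tested, and the 2 peaks were singled out after their counts were seen. Fgfr2, a growth factor receptor, and Ctbp2, a transcriptional corepressor, were joined by 2 identifiers over the longest stretch of the loci named here, with 3 peaks within chr7:130162476-132990484. Their largest peaks had 2807 IP and 1137 input reads over Fgfr2 and 9860 IP and 2408 input reads over Ctbp2.

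**Figure D3:**
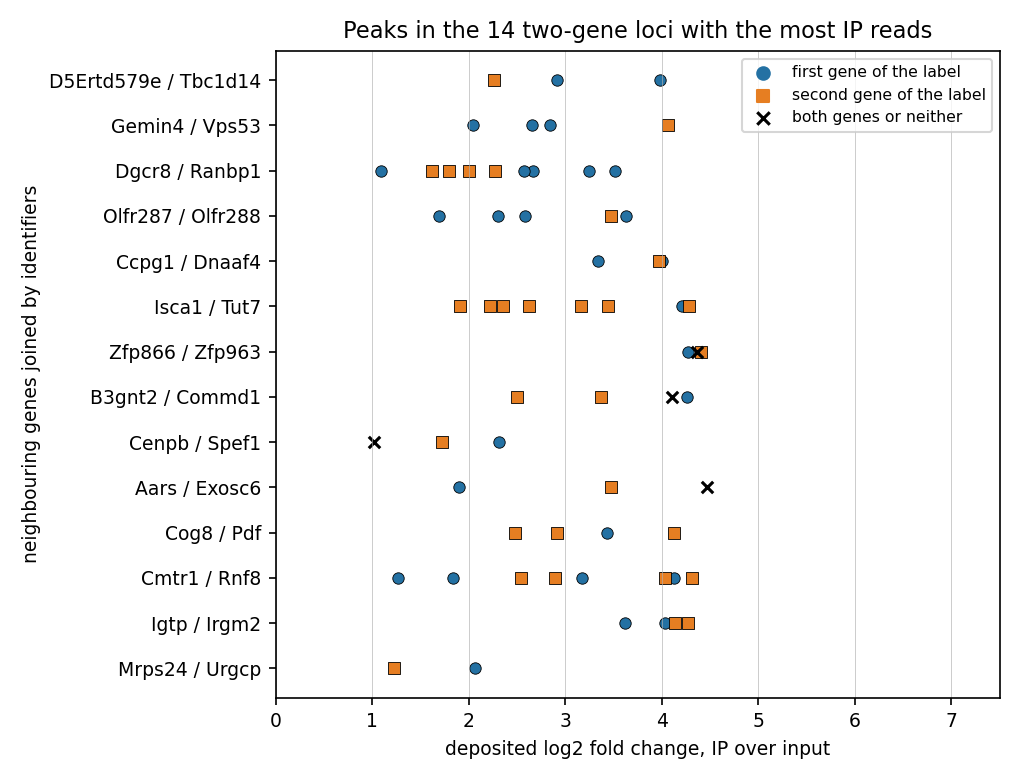
Rows are the 14 loci with exactly 2 same-strand coding genes of separate spans, adjacent or not, and the most IP reads. The x axis is the log2FC (IP over input) per the authors' deposited table. Circles are peaks over the first gene of the label, squares over the second and crosses over both or neither. Peaks of both genes intermingle in the rows of Cmtr1 and Rnf8 and of Ccpg1 and Dnaaf4, and stand apart in that of Gemin4 and Vps53.

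Partly overlapping genes known to lie on the peak's strand were led by Pet117, a mitochondrial assembly factor, with Kat14, a histone acetyltransferase. This pair had 8036 IP and 1352 input reads and a log2FC of 4.51 per the authors' deposited table. Hyal1, a hyaluronidase, with Naa80, the acetyltransferase of actin, had 3382 IP and 842 input reads. The next pair in the same cluster, Naa80 with Hyal3, had 2417 IP and 513 input reads, and the authors' deposited table gave them log2FCs of 3.52 and 3.57. Ovca2 with Dph1, an enzyme of diphthamide synthesis, had 2520 IP and 1298 input reads and a lower log2FC per the authors' deposited table, 2.57.

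Long non-coding RNA genes overlapped 182 shared peaks (11.4%), against 9.20% of single-identifier peaks, and 100 of the 182 also overlapped a coding gene. Such a gene can itself add an identifier, so this contrast is not independent of the selection either. Pou3f3, a POU-domain transcription factor of neural progenitors, with 2900092D14Rik and Gm46091, had 173317 IP and 27208 input reads, a ratio of 6.37 (6.29 to 6.45) and a log2FC of 3.67 per the authors' deposited table. Sox1, a transcription factor that marks neural progenitors, with Sox1ot had 77128 IP and 16998 input reads, and its log2FC per the authors' deposited table was 2.92. Adnp, a homeobox protein of chromatin complexes, with Gm20716 had 58837 IP and 15286 input reads. Mast1, a microtubule-associated kinase, with Gm38426, which lies on the other strand, had 26109 IP and 4761 input reads. Urgcp with Ube2d-ps, which are on opposite strands too, stood lower than these, with 17138 IP and 10211 input reads. Its log2FC per the authors' deposited table was 1.23.

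The mitochondrial genome gave 3 shared peaks of its 7 listed peaks, and these carried large counts. The peak over ND1, a subunit of complex I, with the tRNA genes TrnI and TrnQ had the most IP reads of all shared peaks, 202940, and 147747 input reads. That over ND2 with TrnW had fewer IP than input reads, 93489 against 106094, yet a log2FC of 2.63 per the authors' deposited table. Without mitochondrial peaks, the ratio of summed IP to summed input reads was 2.69 over shared peaks and 2.76 over all peaks, while with them it was 2.52 and 2.71.

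Among nuclear shared peaks outside the pairs above, Spp1, which encodes the secreted protein osteopontin, had 133565 IP and 44764 input reads in 200 bases. The span of Poc1b, a centriole protein, wholly contains Galnt4, a glycosyltransferase whose strand is not listed. Over both lay 2 peaks 25 bases apart, with 69862 and 40568 IP reads and 24699 and 19654 input reads. Their log2FCs per the authors' deposited table were close, 3.07 and 2.97. Atf2, a bZIP transcription factor, had 60773 IP and 24743 input reads in 100 bases and a log2FC of 4.21 per the authors' deposited table.

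The highest log2FCs per the authors' deposited table among shared peaks with at least 50 input reads were 5.84 over Eif5, a translation initiation factor, and 5.74 over Lrrcc1, a centrosomal protein. These peaks had 528 IP and 67 input reads and 585 IP and 81 input reads. Gria4, a subunit of AMPA-type glutamate receptors, was also among the 10 highest and had far more reads, 19903 IP and 3769 input, with a log2FC of 5.37 per the authors' deposited table. Rbm26, an RNA-binding protein, had 9441 IP and 1513 input reads and a log2FC of 5.41 per the authors' deposited table. The lowest log2FCs per the authors' deposited table were 0.49 over Kctd12, an auxiliary subunit of GABA-B receptors, and 0.52 over Creb5, a bZIP factor. Kctd12 had 929 IP and 986 input reads there, and Creb5 had 290 IP and 303 input reads. Trim65, a ubiquitin ligase, had the lowest IP to input ratio of all shared peaks, 0.582 (0.540 to 0.627), with 1100 IP and 1891 input reads.

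Of the 703 loci, 425 had 2 or more shared peaks, 57 had 5 or more, and 278 (39.5%) had 1, against 55.2% with 1 peak among 9502 single-identifier genes. Loci can hold several genes, so both shares do not count the same thing. Within the 425 loci, the log2FC per the authors' deposited table ranged over a median of 1.31, and 110 loci (25.9%) ranged over 2 or more. The pooled SD of the authors' deposited log2FCs was 0.903 within loci and 0.973 over the 1322 peaks of these loci. Single-identifier genes had nearly the same SD within genes, 0.893, so such spread was not particular to shared loci. Their median range was somewhat below 1.31, and their share with a range of 2 or more was not counted. A range also depends on the number of peaks, which was not matched. Neighbouring peaks of a locus lay a median of 1675 bases apart, and 137 of 897 gaps (15.3%) were 100 bases or less.

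Bsn, which encodes the presynaptic scaffold protein Bassoon, had 10 peaks of 1 identifier set, and they were alike. Their IP reads ran from 122 to 667 and their input reads from 20 to 116, and the log2FCs per the authors' deposited table lay between 2.75 and 3.68. The other set with 10 peaks lay over Plec, a linker of the cytoskeleton, and Parp10, an ADP-ribosyltransferase, with log2FCs of 1.42 to 3.82 per the authors' deposited table. The 6 Plec peaks included the one with the most reads, 6685 IP and 4239 input, at a log2FC of 1.53 per the authors' deposited table, and the 4 Parp10 peaks ran from 1.5 to 3.82.

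Reads were often concentrated in 1 peak of a set. Hivep3, a zinc finger transcription factor, had 48284 of its 56607 IP reads (85.3%) in 1 of 7 peaks, with 26347 input reads there and a log2FC of 2.52 per the authors' deposited table. Ncald, a neuronal calcium sensor, had 25145 IP and 11029 input reads in 1 of 8 peaks (65.4% of its IP reads). Srcap, the ATPase of a chromatin remodelling complex, had 15700 IP and 3183 input reads in 1 of 8 peaks (63.5%), which also had its highest log2FC per the authors' deposited table, 4.42. Cdk5rap2, a centrosomal protein, had 1 peak at 3.91 per the authors' deposited table, while its other 7 lay between 1.81 and 2.65.

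Ythdc1, the nuclear reader of m6A, was itself marked in 6 shared peaks, with 26343 IP and 11212 input reads in all. Their log2FCs per the authors' deposited table were all above the median of shared peaks, from 3.11 to 4.87. By reads they did not stand higher, with a ratio of summed reads of 2.35. Over all shared peaks that ratio was 2.52, or 2.69 without mitochondrial peaks, and the median ratio per shared peak was 2.39. Tut7, a terminal uridylyltransferase of RNA, had 7 peaks from 1.91 to 4.28 per the authors' deposited table. Kctd12 spread most of the 12 sets shown, from 0.49 to 4.18 per the authors' deposited table, within about 4 kb of sequence at chr14:102978606-102982630.

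**Figure D4:**
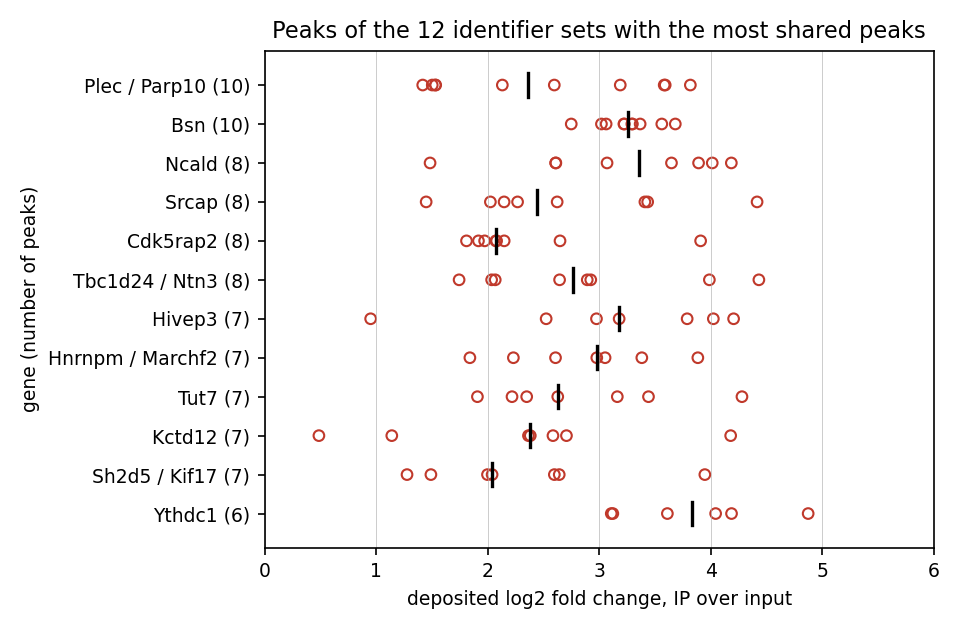
Rows are the 12 identifier sets with the most shared peaks, named by the RefSeq genes under them, and the x axis is the log2FC (IP over input) per the authors' deposited table. Each circle is a peak and each bar the median of its row. Bsn is narrow (2.75 to 3.68) and Kctd12 wide (0.49 to 4.18).

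Overlap with another listed peak on the same strand was found for 75 shared peaks (4.69%), against 81 single-identifier peaks (0.484%). In all 69 overlapping pairs with a shared peak, one interval lay inside the other, and 60 pairs included a peak over the span limit. The pair had a common identifier in 67 cases and the same set in 0 cases. A single-identifier peak cannot have a common identifier with a peak of another set, since 0 identifiers occurred both alone and with others. The shares of 4.69% and 0.484% are therefore not independent of the selection by several identifiers. In 19 of the 69 pairs the wider interval had fewer IP reads than the inner one, as over Dgcr8.

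The position of a shared peak within its gene was measured for 922 peaks that overlapped 1 coding gene on their strand. The midpoint lay in the last 10% of the gene span for 352 shared peaks (38.2%, exact 95% interval 35.0 to 41.4), against 44.3% of 10537 single-identifier peaks (43.3 to 45.3). In the first 10% the shares were 10.5% of shared peaks (8.61 to 12.7) and 8.21% of single-identifier peaks (7.69 to 8.75). For 42 shared peaks (4.56%) the interval reached past the gene's last base, against 3.67% of single-identifier peaks. These intervals cover counting error only, and gene spans include introns. Morc2a and Cebpb lay on the opposite strand from shared peaks over them, as did all RefSeq genes of 22 shared peaks, and the sources used here do not say whether counting used strand. The Morc2a peak had 13045 IP and 2332 input reads and 5 identifiers.

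At the span limit, the widest shared peaks kept were over Golph3l (9941 bases, 6141 IP and 1432 input reads), 2410018L13Rik (9927 bases, 8405 IP and 4616 input reads) and Pde4dip (9840 bases, 3811 IP and 1103 input reads). The narrowest left out were over Efl1 (10117 bases, 3017 IP and 1053 input reads), Plcg1 and Zhx3 (10200 bases, 9968 IP and 2236 input reads) and Glb1 (10239 bases, 5699 IP and 2589 input reads).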

How the data were processed

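The labels list 10 libraries, 4 IP and 1 input for Mettl14 knockout cells and 4 IP and 1 input for control cells. STAR 2.5.2a, Trimmomatic 0.32 and bcl2fastq 2.17.1.14, with the builds GRCm38.p6 and GRCh38.p13, stand in the submitters' processing notes with no role for any. The sources used here do not give the peak caller or the counting tool. The deposited counts are whole reads per peak in 1 IP and 1 input column, per the file headers, and whether they are sums or means over libraries is not given. The log2 fold changes, p-values, adjusted p-values and scores are the authors' own deposited values, taken to compare IP with input. The score was not used. The 21195 peaks were the same in the deposited list and table.

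Identifiers were split at commas, and peaks with common identifiers were joined into loci. RefSeq spans were matched by position with an overlap of at least 1 base. Exact Clopper-Pearson and order-statistic intervals (95%) cover counting error only, since reads without molecular identifiers may be copies of 1 molecule. Ratios use the pooled reads, whose lowest input count in a shared peak was 2. With pooled columns no replicate error, test between groups or SD over libraries could be had, so the results are descriptions. Python 3.11.15, pandas 2.3.3, numpy 2.4.6, scipy 1.17.1 and matplotlib 3.10.9 were used, and the overlap, locus and interval steps were tested on simulated data. Named genes followed ranks: the 12 sets with the most peaks, the 10 peaks with the most IP reads, the 10 highest and 6 lowest log2 fold changes with at least 50 input reads, the most identifiers, all miRNA, snoRNA and same-strand pair peaks, and the 3 peaks on each side of the span limit. Other pairs and peaks were chosen after their values were seen. The shared peaks and all lists were chosen with earlier results of these data known.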

Additional observations from a re-analysis of the deposited data

How the results depend on the processing

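Results were recomputed with span limits of 20000 and 2000 bases, with at least 50 input reads, with a log2 fold change of at least 2 in the authors' deposited table, with the chromosome 18 region kept in, with a pseudocount of 1 and with an overlap of 50% of the shorter of peak and gene. Leaving out mitochondrial peaks, leaving out overlapping peaks and keeping 1 peak per locus or gene were chosen after seeing the data. The number of shared peaks ran from 1217 to 1705 except with 1 peak per locus, which left 703 by construction. The difference in median log2 fold change (authors' deposited table), shared minus single-identifier peaks, had no steady sign: it was -0.0066, ran from -0.017 to 0.034 under the other alternatives, and was 0.093 with 1 peak per locus or gene. The share of shared peaks over 2 or more RefSeq spans was 19.5%, against 22.0% with the chromosome 18 region, 15.5% with the 50% overlap and 21.8% with 1 peak per locus. For 2 or more coding genes it was 10.3%, against 13.1% with that region and 7.81% with the 50% overlap. The other values lay within the 95% interval of the reported value. The comparison of shared with single-identifier peaks of the same identifier was not run, because 0 identifiers occurred in both kinds. No paired analysis was possible because the columns carry no replicate numbers, and for the same reason no replicate could be left out. Depth limits single peaks most where input reads are few, since 204 shared peaks had fewer than 50.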
